A study of Rattus norvegicus with 16 samples.

Results

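Genes of prohormone processing were followed across 4 glucose concentrations in islets of the rat pancreas, clusters of hormone-secreting cells among which beta cells make insulin. The set was defined as Pcsk1, Pcsk2, Cpe, Pam and Scg5, and every probe set that the array annotation gives to 1 of these symbols alone was taken. This gave 6 probe sets for 4 of the 5 genes, out of 14217 genes with a probe set of their own on the array. Pcsk2 was read by 1387155_at, Cpe by 1386921_at, Scg5 by 1367992_at, and Pam by 1367687_a_at, 1370502_at and 1370689_at. Pcsk1 was not analysed here. Pcsk2 and Scg5 lie on rat chromosome 3, Pam on chromosome 9 and Cpe on chromosome 16.

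Peptide hormones are made as longer precursors that are cut and trimmed inside secretory granules. Prohormone convertases, of which Pcsk2 encodes one, cut the precursor after basic residues, carboxypeptidase E (Cpe) removes the basic residues left at the new ends, and the amidating enzyme encoded by Pam turns a terminal glycine into an amide. Scg5 encodes secretogranin V, the small granule protein that accompanies the Pcsk2 enzyme through the secretory pathway. In islets these proteins take part in making insulin, glucagon, somatostatin and amylin from their precursors.

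The islets came from male Wistar rats, and all groups shared a preculture of 1 week at 10 mmol/l glucose in RPMI without serum, with BSA at 5 g/l. They were then kept for 18 h in 2, in 5, in 10 or in 30 mmol/l of glucose, with 1000 islets for each, so 10 mmol/l is also the preculture concentration. Each concentration had 4 Affymetrix Rat230_2 arrays, 1 from each of 4 experiments, and each experiment used its own preparation of islets, which the replicate number is taken to mark. The age of the rats is not given in the sources used here.

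Signals are in the authors' scaled units, in which every array has nearly the same trimmed mean. Array medians lay between 41.5 and 48.1, and no 2 arrays held identical values. The labelled tissue carried its markers: 7 of 10 beta cell markers had a probe set of their own, and all 7 were bright enough to be tested. Of 11 acinar markers 10 had a probe set and 0 were bright enough, with summed signals of 84.9 to 148 on the 16 arrays. All 8 stellate cell and fibroblast markers were bright enough, with sums of 1225 to 3393. So were 2 of 6 duct markers (list sums of 867 to 1736) and 4 of 8 endothelial (155 to 302). Among leukocyte markers 4 of 9 were (414 to 658), and among Schwann and neural markers 1 of 7 (294 to 471). Each concentration went through its own fluidics module, so concentration and module cannot be told apart. Arrays of the same replicate number shared a scan day and a hybridization time of day (AM or PM). A separate fluidics run for each preparation was inferred from these. The number of arrays limits the precision, and the limma p-values set a difference against the spread between these arrays. Unless the preparation is fitted as a block, this spread includes differences between preparations.

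The start regions show the sequence before each gene, and whether they bear on the changes described here was not tested. Each sequence holds the 250 bases before the annotated start site in RefSeq (build GRCr8), read 5′ to 3′ on the strand of the gene. Capitals mark TGACG or its reverse complement CGTCA, the short form of the cAMP response element.
Pcsk2: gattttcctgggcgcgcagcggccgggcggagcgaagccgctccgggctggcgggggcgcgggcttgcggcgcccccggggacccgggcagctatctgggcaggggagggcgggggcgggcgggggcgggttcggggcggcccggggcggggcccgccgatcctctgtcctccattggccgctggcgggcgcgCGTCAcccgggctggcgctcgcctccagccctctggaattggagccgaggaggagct
Cpe: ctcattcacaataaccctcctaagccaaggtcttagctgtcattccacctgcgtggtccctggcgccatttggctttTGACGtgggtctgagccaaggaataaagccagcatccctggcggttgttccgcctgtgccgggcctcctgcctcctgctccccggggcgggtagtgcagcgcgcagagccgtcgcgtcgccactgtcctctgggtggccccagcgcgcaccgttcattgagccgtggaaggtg
Pam: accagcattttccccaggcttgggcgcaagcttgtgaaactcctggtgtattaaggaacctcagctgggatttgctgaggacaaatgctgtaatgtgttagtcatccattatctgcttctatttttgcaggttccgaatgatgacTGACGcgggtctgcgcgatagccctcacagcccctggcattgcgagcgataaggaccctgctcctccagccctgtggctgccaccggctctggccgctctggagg
Scg5: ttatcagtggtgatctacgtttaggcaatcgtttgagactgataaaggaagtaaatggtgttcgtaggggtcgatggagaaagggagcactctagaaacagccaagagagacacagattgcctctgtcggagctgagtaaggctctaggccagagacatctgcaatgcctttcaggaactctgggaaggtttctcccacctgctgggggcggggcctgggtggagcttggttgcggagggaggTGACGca
The Pcsk2 region is chr3:151333688-151333937 on the plus strand, that of Cpe chr16:29796457-29796706 on the plus strand, that of Pam chr9:105570118-105570367 on the plus strand, and that of Scg5 chr3:121042796-121043045 on the minus strand.

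All 4 regions held this short motif on 1 of the strands, starting 57 bases before the start site in Pcsk2, 173 in Cpe, 105 in Pam and 7 in Scg5. Among all 33469 rat promoter regions of this length, 18.2% held it. The full element TGACGTCA (1.59% of all regions), the E-box CACGTG (5.59%) and the TATA box letters TATAAA (12.9%) had 0 matches in each of the 4 regions, with both strands searched. The short motif is contained in the full one, so the 2 searches overlap. The regions differ in base composition, with 79.6% G and C in Pcsk2, 63.2% in Cpe, 55.2% in Pam and 53.2% in Scg5, against a median of 51.2% over all regions.

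Pcsk2, Cpe, Pam and Scg5 had their lowest mean signal at 2 mmol/l glucose, a higher one at 5 mmol/l and the highest at 10 mmol/l, with 30 mmol/l between 5 and 10 mmol/l. At 10 mmol/l their signals were 1.43-fold (Pcsk2), 1.48-fold (Cpe), 1.52-fold (Pam) and 1.51-fold (Scg5) those at 2 mmol/l. All 4 genes passed limma's F-test over the 4 concentrations, with adjusted p of 0.00126 for Pcsk2, 2.98e-04 for Cpe, 9.67e-06 for Pam and 1.94e-05 for Scg5, where 41.8% of all 18625 probe sets tested passed. After quantile normalization, which gives all arrays 1 common distribution of signals, Pam alone of the 4 passed it, with adjusted p of 0.417 for Pcsk2, 0.815 for Cpe, 0.00806 for Pam and 0.0615 for Scg5. Shares of all genes tested that passed after quantile normalization are given below for 10 over 2 mmol/l only. As deposited, the order 2, 5, 30, 10 mmol/l was found in 12.3% of the 7785 probe sets that passed the F-test. It was found in 45.5% of the 200 probe sets with the highest mean signal, to which these 4 belong. Of those 200, 82.5% passed the F-test. Hybridization controls and other bright probe sets moved in the same direction, as given below with values, and their part in these results was not tested. In bulk samples such as these, fewer cells of a type and less RNA per cell cannot be told apart.

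Pcsk2, the convertase that releases glucagon from its precursor and also acts on proinsulin, had signals of 4460, 5351, 5021 and 5923 at 2 mmol/l in preparations 1 to 4. At 5 mmol/l they were 6089, 6832, 5672 and 5733, at 10 mmol/l 6750, 8504, 7040 and 7440, and at 30 mmol/l 6011, 7448, 6364 and 6569. Every array at 10 or 30 mmol/l lay above every array at 2 mmol/l, while the arrays at 5 mmol/l overlapped those of each other concentration. Means ± SD were 5189 ± 612 at 2, 6082 ± 533 at 5, 7433 ± 768 at 10 and 6598 ± 612 at 30 mmol/l (n = 4 each). Preparation 4 stood apart at the low end: its signal at 5 mmol/l was 0.97-fold that at 2 mmol/l, whereas the other preparations were 1.13-fold to 1.37-fold higher at 5 mmol/l.

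Scg5, which encodes the partner protein of the Pcsk2 enzyme, had signals of 5493, 5604, 5808 and 6380 at 2 mmol/l. They were 6955, 7502, 7654 and 6902 at 5 mmol/l, 7752, 9972, 8631 and 8890 at 10 mmol/l, and 7574, 8623, 7923 and 7943 at 30 mmol/l. The 4 arrays at 2 mmol/l were below all others, and those at 5 mmol/l were below all at 10 mmol/l. Means ± SD were 5821 ± 395 at 2, 7253 ± 381 at 5, 8811 ± 914 at 10 and 8016 ± 439 at 30 mmol/l (n = 4 each). Arrays at 10 and 30 mmol/l overlapped, as did arrays at 5 and 30 mmol/l.

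Cpe, whose enzyme trims the basic residues after the convertase cut, had signals of 6378, 7198, 6869 and 7409 at 2 mmol/l. They were 7471, 9463, 8650 and 8258 at 5 mmol/l, 9028, 12124, 10158 and 10077 at 10 mmol/l, and 8580, 10470, 9014 and 9362 at 30 mmol/l. The arrays at 2 mmol/l were again below all others, and arrays at 5, 10 and 30 mmol/l overlapped one another. Means ± SD were 6964 ± 449 at 2, 8461 ± 829 at 5, 10347 ± 1292 at 10 and 9356 ± 809 at 30 mmol/l (n = 4 each). Preparation 2 gave the highest Cpe signal at 5, 10 and 30 mmol/l.

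Pam, the only enzyme known to make the terminal amide of peptides such as amylin, had signals of 4073, 4142, 4098 and 4252 at 2 mmol/l with its brightest probe set, 1367687_a_at. They were 4692, 5508, 4926 and 4863 at 5 mmol/l, 5918, 7315, 5797 and 6313 at 10 mmol/l, and 5633, 6685, 6056 and 5812 at 30 mmol/l. Here 3 levels were set apart: all arrays at 2 mmol/l below those at 5 mmol/l, and these below all arrays at 10 and 30 mmol/l, which overlapped each other. Means ± SD were 4141 ± 78.8 at 2, 4997 ± 355 at 5, 6336 ± 689 at 10 and 6046 ± 459 at 30 mmol/l (n = 4 each). The arrays at 2 mmol/l lay closer together than those of the other concentrations.

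**Figure D1:**
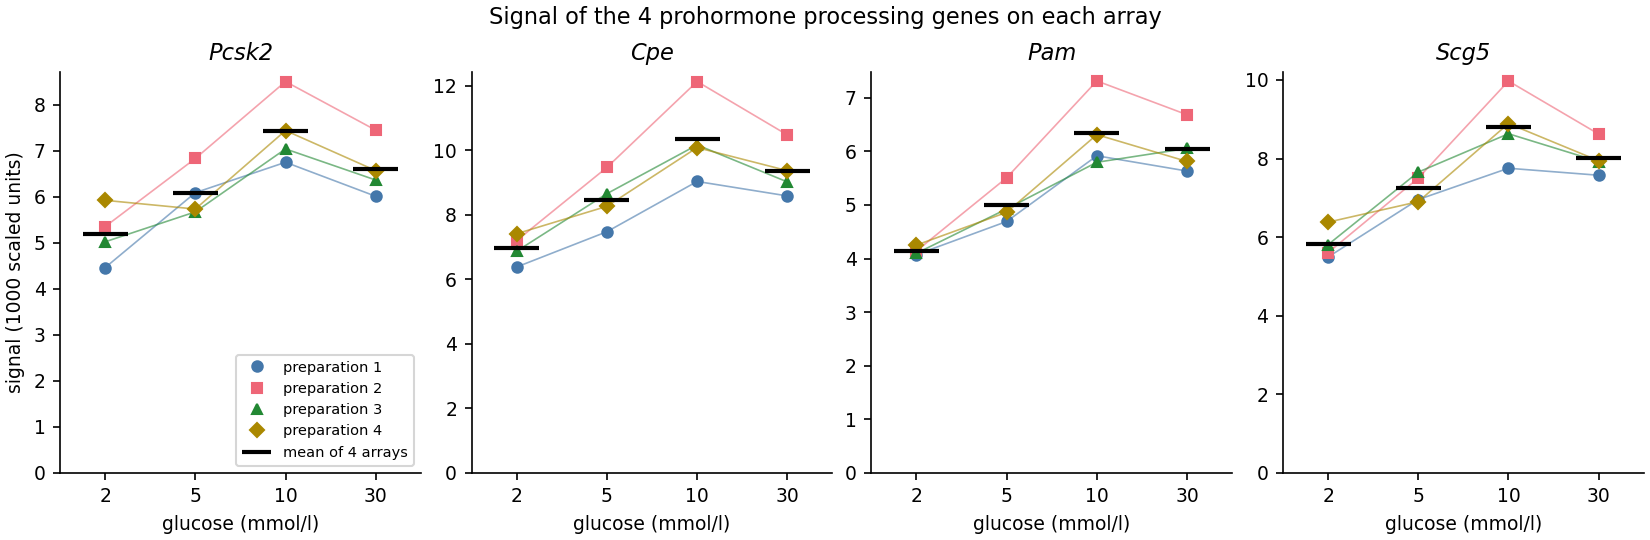
Signal in units of 1000 scaled units (y axis, from 0) of Pcsk2, Cpe, Pam and Scg5 on each of the 16 arrays, by glucose concentration (x axis, 2 to 30 mmol/l). Symbols mark the 4 preparations, thin lines join arrays of 1 preparation and bars are means of 4 arrays; every array at 10 or 30 mmol/l lies above every array at 2 mmol/l in all 4 genes.

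Between 10 and 2 mmol/l all 4 genes rose, where 15.6% of all probe sets tested passed in this direction. The log2 change was 0.52 ± 0.09 for Pcsk2 (SE, limma adjusted p = 2.91e-04), 0.57 ± 0.09 for Cpe (8.60e-05), 0.61 ± 0.08 for Pam (7.27e-06) and 0.59 ± 0.07 for Scg5 (7.01e-06). All 4 genes were higher at 10 mmol/l in 4 of 4 preparations, and the arrays of the concentrations did not overlap, which held for 14.7% of all probe sets in this direction. Within preparations the change at 10 mmol/l was smallest for Pcsk2 in preparation 4 (1.26-fold) and largest for Scg5 in preparation 2 (1.78-fold). Quantile normalization left log2 changes of 0.22 for Pam (adjusted p = 0.00692) and 0.13 for Scg5 (0.0216), and ended the calls of Pcsk2 (0.12, 0.175) and Cpe (0.01, 0.892). On that scale 15.8% of all genes tested rose and 20.3% fell.

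At 30 against 2 mmol/l all 4 genes rose as well, where 16.3% of all probe sets tested did. Of the 200 brightest probe sets, to which these 4 belong, 77.0% rose. The log2 change was 0.35 ± 0.09 for Pcsk2 (limma adjusted p = 0.00625), 0.42 ± 0.09 for Cpe (9.89e-04), 0.54 ± 0.08 for Pam (1.68e-05) and 0.46 ± 0.07 for Scg5 (6.87e-05). The arrays did not overlap in any of the 4 genes, as in 14.9% of all probe sets. After quantile normalization Pam alone of the 4 kept its call (0.22, adjusted p = 0.00714), with 0.03 for Pcsk2 (0.786), -0.02 for Cpe (0.781) and 0.10 for Scg5 (0.0506).

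At 5 against 2 mmol/l Scg5 rose by 0.32 ± 0.07 on the log2 scale (limma adjusted p = 0.0280), 1 of 4 genes where 1.66% of all probe sets tested rose. The changes of Pcsk2 (0.23 ± 0.09, 0.206), Cpe (0.28 ± 0.09, 0.106) and Pam (0.27 ± 0.08, 0.0640) did not pass. With the preparation as a block all 4 passed, at adjusted p of 0.0196 for Pcsk2, 0.00161 for Cpe, 0.00316 for Pam and 0.00206 for Scg5, where 5.87% of all probe sets rose. Cpe, Pam and Scg5 were higher in 4 of 4 preparations with no overlap of arrays, as were 5.14% of all probe sets, and Pcsk2 in 3 of 4. Leaving out 1 array at 2 mmol/l (replicate 1 or 2) or at 5 mmol/l (replicate 1, 2 or 3) ended the Scg5 call without the block, with adjusted p of 0.0692 and 0.103, and of 0.0549, 0.0704 and 0.0826. It was also lost without any 1 of the 4 replicate numbers (0.0741 to 0.199), without the level filter (0.0840) and without the variance trend (0.0984). Leaving out replicate 2 at 10 mmol/l brought Pam past the threshold (0.0361). After quantile normalization the changes were 0.03 to 0.10 and 0 of 4 genes passed.

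The step to 10 from 5 mmol/l passed in all 4 genes, where 10.0% of all probe sets tested rose. The log2 change was 0.29 ± 0.09 for Pcsk2 (limma adjusted p = 0.0339), 0.29 ± 0.09 for Cpe (0.0272), 0.34 ± 0.08 for Pam (0.00306) and 0.28 ± 0.07 for Scg5 (0.0110). Each gene was higher at 10 mmol/l in 4 of 4 preparations, and arrays did not overlap for Pam and Scg5, as in 10.5% of all probe sets. The Pcsk2 call was lost without replicate 1, 3 or 4 at 5 mmol/l or replicate 2 or 4 at 10 mmol/l, at adjusted p of 0.0598, 0.0890, 0.0904, 0.118 and 0.0601. The Cpe call was lost without replicate 1 or 4 at 5 mmol/l or replicate 2 or 3 at 10 mmol/l, at adjusted p of 0.0932, 0.0636, 0.102 and 0.0514. Leaving out a replicate number at all concentrations ended the Scg5 call for number 2 (0.0574) or 4 (0.0715). It ended the Pcsk2 call for number 2, 3 or 4 (0.0545, 0.145 and 0.133) and the Cpe call for 3 or 4 (0.107 and 0.109). The Pam call held in all 4 of these fits. After quantile normalization 0 of 4 genes passed, with log2 changes of 0.09 for Pcsk2, -0.02 for Cpe, 0.16 for Pam (adjusted p = 0.0635) and 0.03 for Scg5. After median centring Pam alone of the 4 passed, and the share of all probe sets passing on that scale is not given here.

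None of the 4 genes passed the test of 30 over 10 mmol/l, where 3.26% of all probe sets tested were called higher and 3.56% lower. Log2 changes were -0.17 ± 0.09 for Pcsk2 (limma adjusted p = 0.324), -0.14 ± 0.09 for Cpe (0.413), -0.06 ± 0.08 for Pam (0.710) and -0.13 ± 0.07 for Scg5 (0.332). At an unadjusted p under 0.05 the count was also 0, the smallest being 0.0825 for Pcsk2, and with the preparation as a block it was 0, where 8.18% of all probe sets were lower. As deposited, Pcsk2, Cpe and Scg5 were nevertheless lower at 30 mmol/l in 4 of 4 preparations, and Pam in 3 of 4. The arrays overlapped in all 4 genes, where all arrays at 30 mmol/l lay below those at 10 mmol/l in 6.74% of all probe sets. The direction depended on the scaling. Quantile normalization left -0.09 for Pcsk2, -0.03 for Cpe, -0.01 for Pam and -0.02 for Scg5. Centred on the hybridization controls, the changes were 0.04, 0.07, 0.15 and 0.08 for the same genes, and none passed.

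Pam rose at 30 against 5 mmol/l (0.27 ± 0.08, limma adjusted p = 0.00922), 1 of 4 genes where 12.7% of all probe sets tested rose. The others had 0.12 ± 0.09 (Pcsk2, 0.383), 0.15 ± 0.09 (Cpe, 0.239) and 0.14 ± 0.07 (Scg5, 0.154). Pam arrays at 30 and at 5 mmol/l did not overlap, as in 12.4% of all probe sets, and its change within preparations was 1.20-fold to 1.23-fold. With the preparation as a block Cpe passed too (0.0191), where 17.2% of all probe sets rose, and after quantile normalization Pam had 0.15 (0.0580). Set against the mean of 5 and 10 mmol/l, the mean of 2 and 30 mmol/l was lower for Scg5 (-0.23 ± 0.05, 0.0121) and Cpe (-0.21 ± 0.06, 0.0488), where 4.28% of all probe sets were lower. Pcsk2 had -0.20 ± 0.07 (0.0704) and Pam -0.17 ± 0.05 (0.0641), and with the block all 4 passed (largest adjusted p 0.00379, for Pam), where 9.49% of all probe sets were lower. Quantile normalization ended both calls, with -0.06 for Scg5 (0.244) and -0.03 for Cpe (0.664), and centring on the hybridization controls turned them to 0.00 and 0.02 (0.983 and 0.898). Without the variance trend both calls were lost (0.0521 for Scg5 and 0.120 for Cpe), as they were without replicate number 2 (0.0739 and 0.115) or 3 (0.117 and 0.255). The Cpe call was also lost without replicate number 4 (0.126) and without the level filter (0.143). Without the block, the Cpe call was lost in 13 of 16 fits that left out 1 array, at adjusted p of 0.0512 to 0.0991, and held without replicate 1 at 5 mmol/l, replicate 1 at 10 mmol/l or replicate 2 at 30 mmol/l. Leaving out replicate 4 at 2 mmol/l brought Pcsk2 past the threshold (0.0372), replicate 3 at 10 mmol/l brought Pam past it (0.0498), and replicate 2 at 30 mmol/l both (0.0445 and 0.0403).

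**Figure D2:**
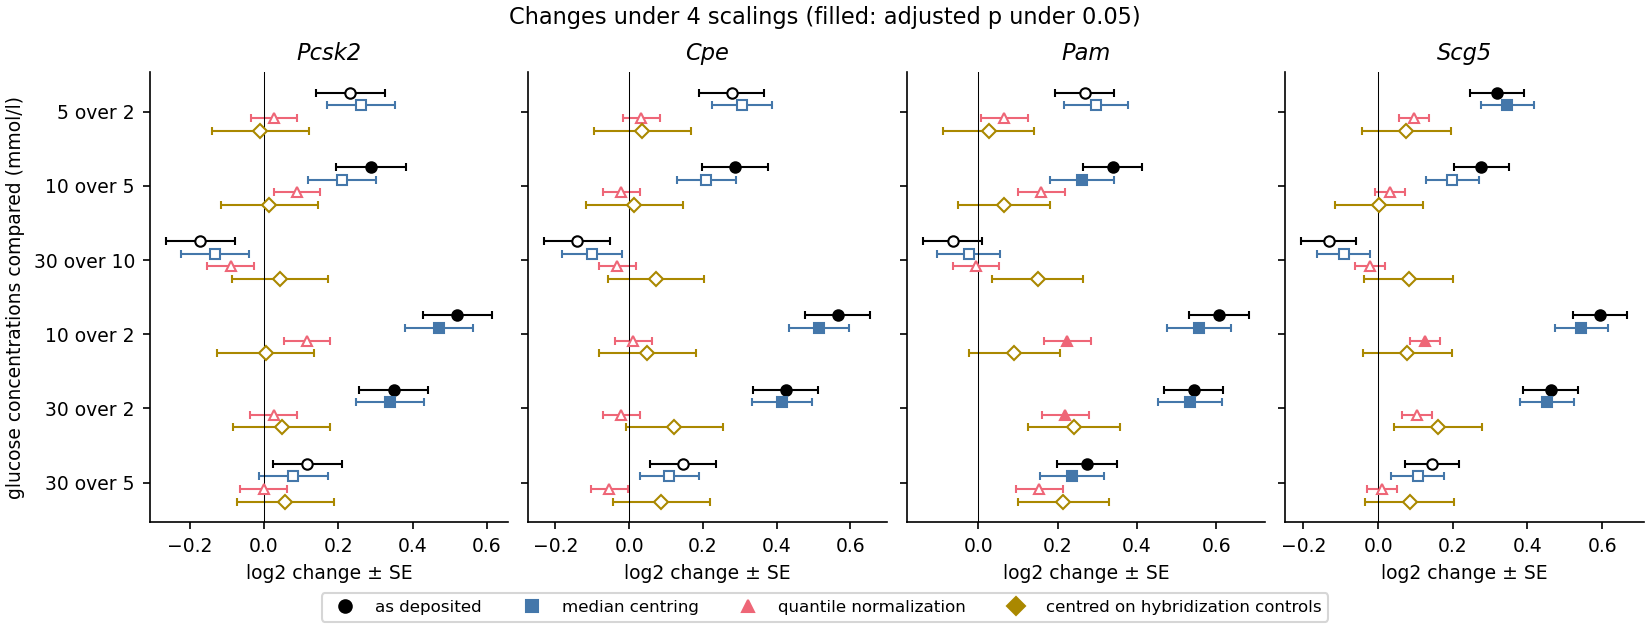
Log2 change ± SE (x axis) of each gene in 6 comparisons of glucose concentrations (rows, higher over lower) under 4 scalings of the arrays: as deposited, centred on array medians, quantile-normalized, and centred on the hybridization controls. Filled symbols passed an adjusted p under 0.05; at 10 over 2 mmol/l Cpe has 0.57 as deposited and 0.01 after quantile normalization.

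Bright probe sets and control probe sets moved with the 4 genes. The 200 probe sets with the highest mean signal had a median log2 change of 0.40 at 10 over 2 mmol/l, and 78.0% of them passed as higher. Among these 200, a larger change than that of Pcsk2 was found for 52, than that of Cpe for 35, than that of Scg5 for 25 and than that of Pam for 23. The median over all probe sets tested was 0.02. At 30 over 2 mmol/l the median of the 200 was 0.34, with 97 above Pcsk2, 68 above Cpe, 57 above Scg5 and 29 above Pam. The share of the 200 that passed as higher was 15.0% at 5 over 2, 37.0% at 10 over 5 and 32.5% at 30 over 5 mmol/l. For the ends over the middle 22.5% passed as lower.

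The 9 hybridization control probe sets, which read transcripts of bacterial or bacteriophage genes added to each sample before hybridization, averaged 10.33 ± 0.08 (SD, n = 4) on the log2 scale at 10 mmol/l, against 9.82 ± 0.18 at 2 mmol/l. This difference of 0.52 was seen in 4 of 4 preparations and was close in size to that of Pcsk2 (two-sided exact permutation p = 0.0286, the smallest that 4 against 4 arrays can give; 0.0857 after adjustment over 24 such comparisons). At 30 mmol/l the controls were 0.21 lower than at 10 mmol/l, in 4 of 4 preparations and in all 9 probe sets. With each array centred on these controls, 0 of 4 genes passed in limma for each comparison. The log2 changes at 10 over 2 mmol/l were then 0.00 for Pcsk2, 0.05 for Cpe, 0.09 for Pam and 0.08 for Scg5. The share of all probe sets passing on this scale is not given here, so the count cannot be set against it. The largest change over 2 mmol/l on that scale was 0.24 for Pam at 30 mmol/l (adjusted p = 0.0995).

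The ratio of 3′ to 5′ signal of the Actb control, a measure of RNA length, was 0.23 higher on the log2 scale at 10 than at 2 mmol/l, in 4 of 4 preparations (exact permutation p = 0.0286, adjusted 0.0857). It was 0.21 higher at 5 and at 30 than at 2 mmol/l, and the same ratio of Gapdh was 0.11 lower at 10 than at 2 mmol/l, in 4 of 4 preparations (exact permutation p = 0.200, adjusted 0.300). At 30 over 10 mmol/l the Gapdh ratio was 0.17 higher, in 4 of 4 preparations (exact permutation p = 0.0857, adjusted 0.158). Over the 16 arrays the log2 signals of the 4 genes correlated with the mean of the hybridization controls at r = 0.72 to 0.79, and with the median of the 200 bright probe sets at 0.84 to 0.93. After subtraction of each concentration's mean these were -0.02 to 0.22 for the controls and 0.44 to 0.72 for the bright probe sets. These correlations share arrays and concentrations with the results above and are a description.

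**Figure D3:**
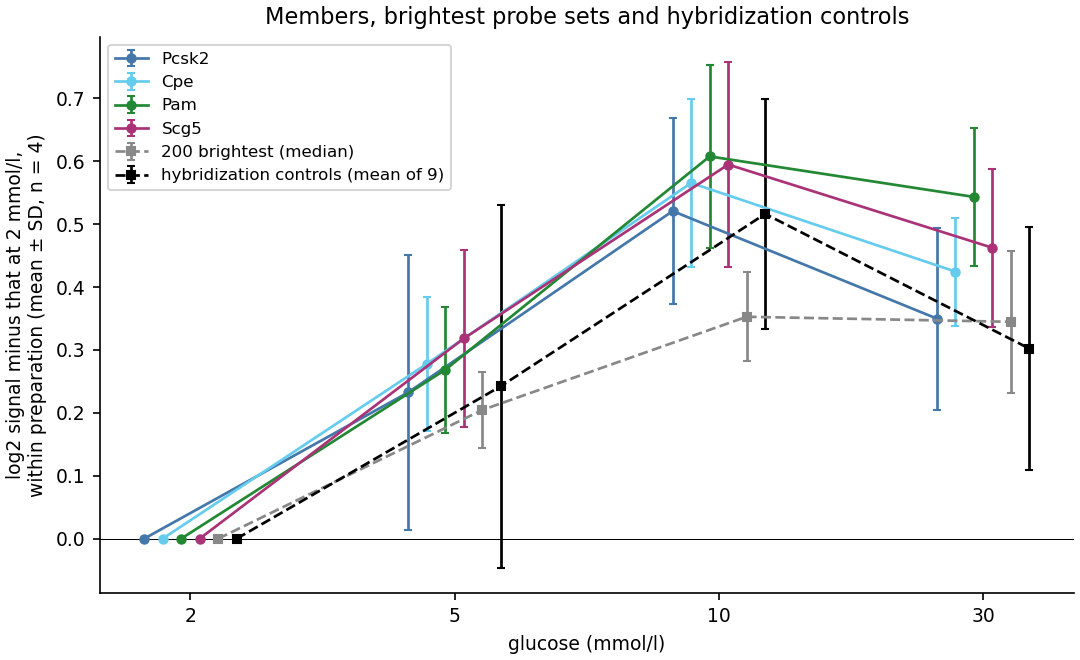
Log2 signal minus that at 2 mmol/l within a preparation (y axis, mean ± SD, n = 4) by glucose concentration (x axis) for Pcsk2, Cpe, Pam and Scg5, for the median of the 200 brightest probe sets and for the mean of the 9 hybridization controls. At 10 mmol/l the genes lie at 0.52 to 0.61, the controls at 0.52 and the bright probe sets at 0.35; at 30 mmol/l the genes lie at 0.35 to 0.54, the controls at 0.30 and the bright probe sets at 0.34.

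Whether the genes differed in their response was tested on the ratio of 2 genes within an array, for 6 pairs at 10 over 2 and at 30 over 10 mmol/l. A factor that scales a whole array cancels in this ratio. None of the 12 differences passed after adjustment, and 1 had an unadjusted p under 0.05. At 30 over 10 mmol/l the change of Pcsk2 was 0.11 ± 0.03 below that of Pam on the log2 scale, in 4 of 4 preparations (difference -0.11, two-sided exact permutation p = 0.0286, adjusted 0.343). Within preparations this difference ran between -0.21 and -0.06. The other 11 differences had adjusted p of 0.629 to 0.886. At 10 over 2 mmol/l they ran from -0.09 ± 0.08 for Pcsk2 against Pam to 0.01 ± 0.05 for Pam against Scg5. These p-values do not show that the genes respond alike.

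Pam had 2 further probe sets with much lower signals. Probe set 1370502_at had 49.3, 46.0, 39.4 and 62.9 at 2 mmol/l, 66.2, 21.3, 50.2 and 57.9 at 5 mmol/l, 46.4, 35.8, 40.3 and 63.2 at 10 mmol/l, and 59.0, 48.6, 62.0 and 64.0 at 30 mmol/l. All concentrations overlapped, and the F-test did not pass (limma adjusted p = 0.658). Its log2 change at 10 over 2 mmol/l was -0.10 ± 0.29 (SE), against 0.61 ± 0.08 for 1367687_a_at, and the difference between these probe sets was not tested. Its signal lies close to the array medians. With the mean of both tested probe sets standing for the gene, the change of Pam was 0.25 at 10 over 2 mmol/l (limma adjusted p = 0.127), 0.18 at 10 over 5 mmol/l (0.340) and 0.32 at 30 over 5 mmol/l (0.0556), and none of these passed. Probe set 1370689_at averaged 4.93, close to the floor of 3.4 set on the signals, and was not bright enough to be tested.

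Preparation 2 averaged above the concentration means by 0.15 on the log2 scale for Pcsk2, 0.15 for Cpe, 0.13 for Pam and 0.07 for Scg5. Preparation 1 averaged below them, at -0.12, -0.15, -0.08 and -0.10 for the same genes. Its arrays alone came from 1 of the chip lots and 1 of the scan days. Preparation, lot and day therefore cannot be told apart for it. The residual SD on the log2 scale was 0.10 with the preparation as a block and 0.14 without it for Pcsk2, 0.06 and 0.14 for Cpe, 0.07 and 0.11 for Pam, and 0.09 and 0.10 for Scg5. Deviations from the concentration means correlated at r = 0.78 to 0.87 between each 2 of the 4 genes over 16 arrays, which share library and scale.

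The genes with the most similar profiles, by Pearson correlation of log2 signal over the 16 arrays, included hormone precursors and granule proteins. For Pcsk2 they were Iapp, the amylin precursor (0.95), Cpe (0.95) and Gcg, the glucagon precursor (0.95). For Cpe they were Scg2, a granin (0.98), Iapp (0.98) and COX2 (0.98). For Pam they were Gnas, a G protein subunit (0.99), Iapp (0.98) and the membrane protein Cd63 (0.97). For Scg5 they were Resp18, an endocrine granule protein (0.98), Spint2, a protease inhibitor (0.97), and Cd164 (0.97). All of these but Spint2 were among the 200 brightest probe sets.

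Precursors of peptide hormones and granins, on which such enzymes act, moved in the same direction. Of 20 tested prohormone and granin genes, 14 rose and 1 fell at 10 over 2 mmol/l, with a median log2 change of 0.57, where 16.1% of all 10221 genes tested rose, 21.0% fell and the median was -0.02. Sst, the somatostatin precursor, averaged 8705 ± 520 (SD, n = 4) at 10 mmol/l, against 5627 ± 434 at 2 mmol/l, a log2 change of 0.63 ± 0.06 (limma adjusted p = 1.05e-06). Ins1 (0.56), Ins2 (0.42), Iapp (0.62) and Gcg (0.51) rose too. After quantile normalization these had 0.19 (Sst), 0.06 (Ins1), 0.00 (Ins2), 0.04 (Iapp) and -0.05 (Gcg), and 8 of the 20 genes rose and 1 fell, where 15.8% of all genes tested rose and 20.3% fell. Npy (0.72, 0.47 after quantile normalization), Nucb2, the precursor of nesfatin (0.77, 0.43), and the granins Chga (0.52, 0.37) and Scg3 (0.57, 0.19) passed under both scalings, and Scg2 (0.52, 0.09) only as deposited.

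Adm, the precursor of the amidated peptide adrenomedullin, was the 1 gene of this list that fell at 10 over 2 mmol/l. It averaged 283 ± 102 (SD, n = 4) at 30 mmol/l, against 28.0 ± 8.59 at 10 mmol/l, a log2 change of 3.32 ± 0.29 (limma adjusted p = 1.15e-06), 1 of 20 genes that rose in this comparison, where 4.30% of all genes tested rose and 4.31% fell. At 10 against 2 mmol/l it fell, with a log2 change of -1.0 ± 0.29 (adjusted p = 0.0123), to 28.0 ± 8.59 at 10 mmol/l, against 55.4 ± 16 at 2 mmol/l. These are dim signals: the mean at 10 mmol/l lies below all array medians, and that at 2 mmol/l a little above them.

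Of 18 tested genes of other processing enzymes and inhibitors, 3 rose and 0 fell at 10 over 2 mmol/l, with a median of 0.09. The count that rose is near the share of all genes tested, of which 16.1% rose and 21.0% fell. Pcsk1n, a granin-like precursor known as an inhibitor of a convertase, averaged 2741 ± 236 at 10 mmol/l and 2075 ± 302 at 2 mmol/l (0.41 ± 0.11, limma adjusted p = 0.00904; 0.20 and 0.190 after quantile normalization). The lysosomal protease Ctsb (0.39) also rose as deposited but did not pass after quantile normalization (0.12). Yipf5, which is known for traffic between endoplasmic reticulum and Golgi rather than for cutting, rose under both scalings (0.59 and 0.36). Furin, the convertase of the Golgi, had 186 ± 7.93 at 10 mmol/l and 157 ± 8.20 at 2 mmol/l (0.24 ± 0.10, adjusted p = 0.0704). Cpd, a carboxypeptidase of the Golgi, had 452 ± 80.2 and 376 ± 39.8 at the same concentrations (0.26 ± 0.18, 0.307).

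A list of copper and ascorbate handling was read because the amidating enzyme uses both, and not every gene of it serves that enzyme. Of its 9 tested genes, 3 rose and 1 fell at 10 over 2 mmol/l, with a median of 0.12. Of all genes tested 16.1% rose, 21.0% fell and the median was -0.02. Cyb561, the granule cytochrome that passes electrons for ascorbate recycling, averaged 694 ± 38.0 (SD, n = 4) at 10 mmol/l, against 364 ± 24.8 at 2 mmol/l. Its log2 change was 0.93 ± 0.09 (limma adjusted p = 5.17e-07), and 0.98 after quantile normalization. Slc23a2, an ascorbate transporter, rose as well (0.62, and 0.69 after quantile normalization). Atp7a, the copper pump that loads copper enzymes in the Golgi, fell to 164 ± 7.03 at 10 mmol/l, against 290 ± 27.1 at 2 mmol/l (-0.82 ± 0.10, adjusted p = 1.03e-05), and had -0.77 after quantile normalization. Atp7b, the other copper pump of the list, rose at lower signals, to 85.5 ± 8.03 from 56.4 ± 20.4. Its log2 change was 0.68 ± 0.24 (limma adjusted p = 0.0396), and 0.65 after quantile normalization.

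Of 21 tested genes of granule acidification, 7 rose and 4 fell at 10 over 2 mmol/l, where 16.1% of all genes tested rose and 21.0% fell. The median of 0.15 turned to -0.02 after quantile normalization, with 4 genes higher and 3 lower, where 15.8% of all genes tested were higher and 20.3% lower. The proton pump subunits did not move together. Atp6v1a (0.40 ± 0.08, limma adjusted p = 9.55e-04) and the accessory subunit Atp6ap1 (0.57 ± 0.07, 3.52e-06) rose, and Atp6v1c1 (-0.43 ± 0.08, 6.28e-04) and Atp6v1d (-0.61 ± 0.07, 3.85e-06) fell, each also passing after quantile normalization. Of 23 tested genes of granule formation, 8 rose and 1 fell, with a median of 0.10, where 16.1% of all genes tested rose and 21.0% fell. After quantile normalization 8 rose and 3 fell, where 15.8% and 20.3% of all genes tested did. Among them were Ptprn2, a granule membrane protein (0.75, and 0.66 after quantile normalization), Rab3d (0.75 and 0.78), Ccdc186 (0.87 and 0.89) and Rab2a (0.50 and 0.20).

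**Figure D4:**
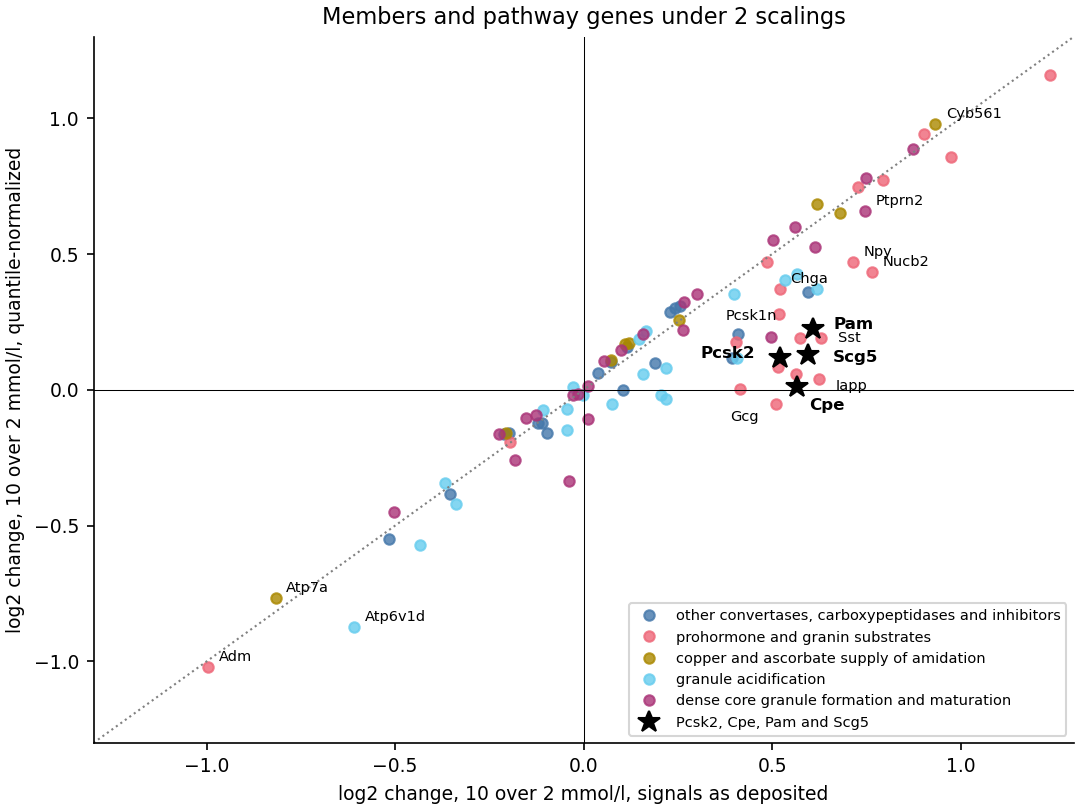
Log2 change at 10 over 2 mmol/l with signals as deposited (x axis) and after quantile normalization (y axis) for the tested genes of 5 pathway lists (coloured points) and for Pcsk2, Cpe, Pam and Scg5 (stars). The dotted line marks equal values; the stars lie below it, with 0.52 to 0.61 on the x axis and 0.01 to 0.22 on the y axis, while Cyb561 lies close to it (0.93 and 0.98).

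Markers of the cell types were read in the same comparison, in which 16.1% of all genes tested rose, 21.0% fell and 78.0% of the 200 brightest probe sets rose. Of 7 tested beta cell markers 5 rose and 1 fell at 10 over 2 mmol/l, and their summed signal was 25431 to 29618 at 2, 29109 to 35099 at 5, 37279 to 48836 at 10 and 36153 to 43298 at 30 mmol/l. Of 6 tested alpha cell markers 3 rose, with summed signals of 11515 to 15008 at 2, 14582 to 16036 at 5, 16822 to 19607 at 10 and 15871 to 16990 at 30 mmol/l. Of 4 tested delta cell markers 1 rose and 1 fell, with 5715 to 6932 at 2, 7237 to 7817 at 5, 8939 to 10078 at 10 and 8228 to 8932 at 30 mmol/l. Of the other lists, 1 of 4 leukocyte markers rose, 1 of 2 duct, 1 of 8 stellate cell and 1 of 1 Schwann cell markers fell, and 0 of 4 endothelial markers and 0 of 1 PP cell markers passed. The median log2 change was 0.47 for beta, 0.45 for alpha and 0.36 for delta cell markers, and 0.50 for endothelial and 0.35 for stellate cell markers. The endocrine sums are led by Ins1, Ins2, Iapp, Gcg and Sst, which are on the list of precursors too. Their part in the changes of Pcsk2, Cpe, Pam and Scg5 was not tested.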

How the data were processed

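RNA of 16 islet cultures was measured on Affymetrix Rat230_2 arrays. The authors deposited linear signal intensities, made with GCOS per the submitters' processing notes (version not given in the sources used here). Each array's mean, after trimming 2% at each end, was nearly equal, so the values carry a scaling per array. Run files gave fluidics modules, 3 scan days and 2 chip lots, and fluidics runs were inferred from scan day and hybridization time of day.

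Of 31099 probe sets, 57 were controls, 20826 had 1 symbol, 436 several and 9780 none. Signals under 3.4 (the 10th percentile) were set to 3.4 before log2. Probe sets in the upper 60% of mean signal (18625) were tested with limma 3.58.1 in R 4.3.3 (lmFit over 16 arrays, eBayes with trend, two-sided, Benjamini-Hochberg over all tested, calls at an adjusted p under 0.05). A gene stands for its brightest probe set of its own. Array measures and ratios of genes were compared by exact permutation (SciPy 1.17.1). The fit was tested on simulated data.

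The members, lists and tests were chosen with earlier results of these data known. Named list genes are up to 4 with the smallest F-test p plus a fixed set, with Atp7b added beside Atp7a. As pairs, arrays with the same replicate number were checked: after subtraction of group means 24 such pairs correlated at 0.136 to 0.434 and the 72 others at -0.264 to 0.130, and the labels give different preparations per experiment, so the number was used as a block in an alternative fit. Other alternatives were scalings, filters, floors, variance models, thresholds and leaving out arrays. Promoter sequences are RefSeq's (GRCr8) and cover all 4 genes.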

Additional observations from a re-analysis of the deposited data

Results flagged for a closer look

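Among 24 groups of 4 arrays examined, 1 was flagged for an array apart from the other 3. Chance gives about 1 in 20 such groups, a rate that does not cover values tied at the floor. In the dimmest probe set of Pam, 1370689_at, replicate 4 at 2 mmol/l had a signal of 4.4. The other 3 arrays had 3.0, 2.2 and 1.9 and were set to the floor of 3.4. With these tied, the gap between replicate 4 and the nearest other, divided by the range of the group, was 1. The flag thus comes from the floor. The probe set was too dim to be tested, and no value in the comparisons rests on it.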

How the results depend on the processing

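Counts are of the 4 genes passing, against 4 in the F-test, 1 at 5 over 2, 4 at 10 over 5, 0 at 30 over 10, 4 at 10 over 2, 4 at 30 over 2, 1 at 30 over 5 mmol/l and 2 for the ends over the middle as reported. After quantile normalization the counts were 1 in the F-test, 0 at 5 over 2, 0 at 10 over 5, 2 at 10 over 2, 1 at 30 over 2, 0 at 30 over 5 and 0 for the ends over the middle. Quantile normalization with the replicate block gave 2, 0, 1, 2, 2 and 0 in the F-test, at 5 over 2, 10 over 5, 10 over 2, 30 over 2 and for the ends. Centring on the hybridization controls gave 0 in all of them, with no share of all probe sets given for it. These last 2 settings were chosen after seeing the data. Cpe changed sign after quantile normalization, with and without the block, to -0.0213 at 10 over 5 and -0.0213 at 30 over 2 mmol/l. Centred on the controls, the ends over the middle turned to 0.0188 for Cpe and 0.00295 for Scg5. On the same scale the change at 30 over 10 mmol/l turned from below 0 to above 0 in all 4 genes. Median centring gave 1 at 10 over 5 mmol/l, also with no share of all probe sets given for it. The replicate block gave 4 at 5 over 2, 2 at 30 over 5 and 4 for the ends; the number as a random block gave 4 at 5 over 2 and 4 for the ends, and scan day as a block 3 and 4. The pairing changed no other count. Without a level filter the counts were 0 at 5 over 2, 2 at 10 over 5 and 1 for the ends; without the variance trend 0, 2 and 0; at an adjusted p under 0.01 0, 1 and 0. The upper 40% of mean level gave 2 and only the groups compared gave 0 at 5 over 2, and averaging the probe sets of a gene gave 0 at 30 over 5. Leaving out arrays or replicate numbers gave 0 to 2 at 5 over 2, 1 to 4 at 10 over 5, 0 to 1 at 30 over 5 and 0 to 4 for the ends, and 4 in the F-test, at 10 over 2 and at 30 over 2 each time. Pam at 30 over 5 mmol/l failed without replicate 3 (0.27, adjusted p = 0.0613). The cause of these differences was not tested. In the other comparisons the counts stayed within 1.5 times of those reported. Without the floor, with log2 of the value plus 50 and with robust eBayes no count moved that far. For ratios of 2 genes, the exact sign-flip test within preparations (the replicate block) cannot go below a p of 0.125, so it could not pass.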
